A study of Rattus norvegicus with 4 samples.

Results

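Gdf10, a BMP family ligand also known as BMP3b, was read together with 8 other genes of bone morphogenetic protein (BMP) signalling in rat soleus muscle. The 9 genes were the ligands Gdf10, Bmp2, Bmp4, Bmp5, Bmp6 and Bmp7, the receptors Bmpr1a and Bmpr2, and the extracellular antagonist Grem1. They were matched to the array through the transcript accession of each probe, and all 9 were found, with 10 probes, among 26633 genes and transcripts. The set was chosen by BMP family role around Gdf10, a gene selected on its processed signal, which was higher in regenerated than in normal muscle on these same arrays. Its levels are therefore a description, with no test attached. The study asked how an earlier injury followed by regeneration bears on the hypertrophy that overload brings about. It used the slow postural soleus of male rats in 4 groups of 6 muscles. The regenerated overloaded group was 18 weeks old and held regenerated muscle after overloading. The regenerated group was 16 weeks old and was taken 8 weeks after an injection labelled CTX, an abbreviation the labels do not expand. The overloaded group was 18 weeks old and is labelled as hypertrophied muscle, and the normal group was 16 weeks old. How the load was raised, how long before sampling the regenerated overloaded muscle had been injected, and whether groups came from the same rats are not given in the sources used here.

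RNA of the 6 muscles of a group was pooled in equal amounts and put on 1 one-colour array, so each group is 1 measurement. Differences between animals cannot be seen, no p-value can be given, and all standard errors (SE) below are technical and rest on the scatter of a probe's spots within an array. Levels are scaled intensities, background-subtracted spot signals set to a common 75th percentile of 749.8 units on every array. A log2 difference is the first-named group minus the second, and 2-fold is used as a limit of size only. A gene counts as above background on an array where the larger share of its brightest probe's spots was so marked by the scanner software.

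BMPs are secreted dimers that bring type I receptors such as Bmpr1a and type II receptors such as Bmpr2 together, after which SMAD proteins carry the signal to the nucleus and switch on target genes of the Id and Msx families. Noggin, gremlin, chordin-like proteins and follistatin bind ligands outside the cell and keep them from their receptors. In mice, BMP signalling sustains muscle fibre mass, restrains the atrophy ubiquitin ligase gene Fbxo30, and keeps satellite cells dividing. Gdf10 is closest to Bmp3 and stands apart from the bone-inducing BMPs, and in mouse muscle it is made by mesenchymal, fibro-adipogenic progenitor cells.

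Gdf10 was highest in regenerated overloaded muscle, with 343 units, followed by regenerated muscle with 309, overloaded muscle with 185 and normal muscle with 82.0. It was printed as 10 spots, all above background on all 4 arrays. The spots ranged between 318 and 369 units in regenerated overloaded muscle, 292 and 324 in regenerated muscle, 172 and 202 in overloaded muscle, and 62.7 and 94.2 in normal muscle. Every pair of arrays was therefore apart in all its spots, except for the 2 regenerated arrays, whose spots overlapped. The order held in the scanner's median spot signals before any scaling, which were 378 units in regenerated overloaded, 329 in regenerated, 237 in overloaded and 132 in normal muscle, over a local background between 31 and 41.3 units.

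**Figure D1:**
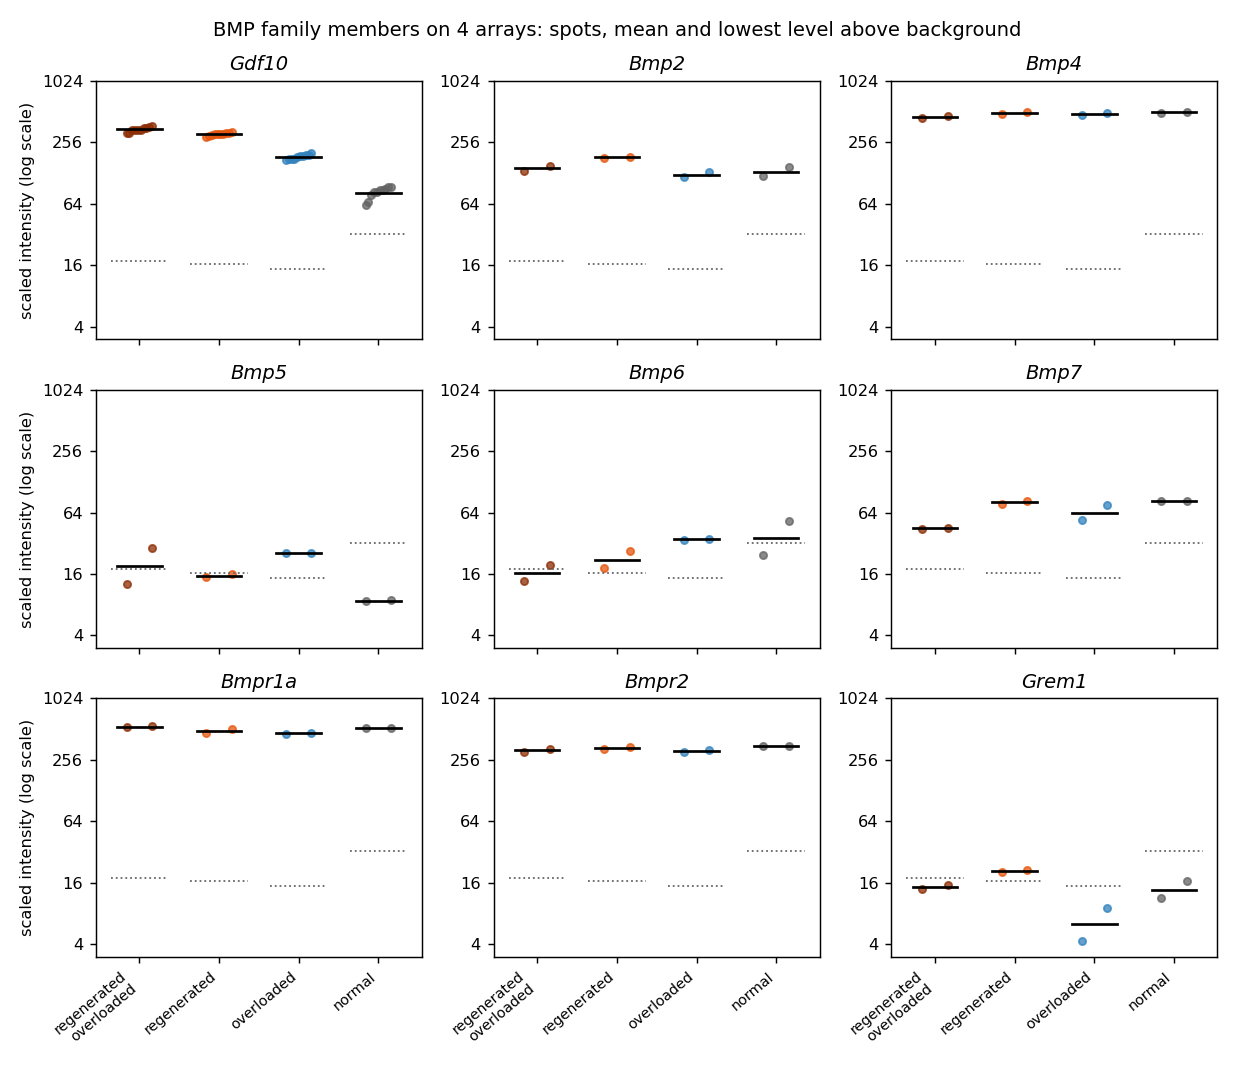
Scaled intensity (log scale) of the 9 genes in regenerated overloaded, regenerated, overloaded and normal soleus, 1 pooled array each. Points are spots of the probe used, black bars their mean, and dotted lines the lowest probe level well above background on that array; Gdf10 spans 82.0 to 343 units, while Bmp4, Bmpr1a and Bmpr2 stay within a span of at most 1.16-fold.

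Regenerated muscle had 3.77-fold the Gdf10 level of normal muscle (log2 difference 1.91, SE 0.11). Of 14449 genes above background on both of these arrays, 14 had a larger log2 difference. Overloaded muscle had 2.26-fold the level of normal muscle (1.17, SE 0.11), and 176 of 14458 genes had a larger one. Regenerated overloaded muscle had 1.86-fold the level of overloaded muscle (0.89, SE 0.040), with 140 of 16316 genes above it. Between regenerated overloaded and regenerated muscle the difference was 0.15 (1.11-fold, SE 0.033), which 3758 of 16195 genes exceeded. Gdf10 was thus higher after regeneration with and without overload, in pairs of arrays that have none in common. It was selected on the difference without overload, so that pair adds no support to the 1.86-fold difference with overload, which was short of 2-fold. The differences from normal muscle share 1 array, the dimmest, on which 60.4% of probe spots were well above background, against 68.1% in regenerated overloaded, 68.9% in regenerated and 70.6% in overloaded muscle. The size of both depended on background correction. With a model-based correction (normexp) and quantile normalization the ratios to normal muscle were 2.32-fold in regenerated and 1.56-fold in overloaded muscle. The second then no longer passed 2-fold. With the same correction the ratio of regenerated overloaded to overloaded muscle was smaller too, at 1.58-fold.

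Set against normal muscle, 1 of the 7 genes measured (above background on at least 1 of the pair of arrays) was higher in regenerated muscle by 2-fold or more (Gdf10) and 0 were lower, beside 1.25% higher and 0.662% lower (1.92% in all) among the 16911 genes measured. In overloaded muscle, again against normal muscle, 1 of 8 was higher (Gdf10) and 0 lower, beside 2.42% and 0.74% (3.15% in all) of 17308 genes. Regenerated overloaded against regenerated muscle gave 0 of 7 past 2-fold, beside 1.99% of 17208 genes, 1.55% higher and 0.442% lower. Regenerated overloaded against overloaded muscle gave 0 of 8, beside 1.69% of 17493 genes, 1.01% higher and 0.68% lower. At a limit of 1.5-fold the members past it numbered 1 (Gdf10) in regenerated against normal, 1 (Gdf10) in overloaded against normal, 1 (Bmp7) in regenerated overloaded against regenerated and 2 (Gdf10 and Bmp6) in regenerated overloaded against overloaded muscle, beside 8%, 11%, 7.09% and 5.34% of all genes. Because Gdf10 helped to choose the set, nothing is read from these counts. The members' median log2 difference, over those above background on both arrays as are all medians here, was -0.04 in regenerated and -0.13 in overloaded muscle, each against normal muscle, and -0.10 for regenerated overloaded against regenerated and 0.11 against overloaded muscle. The medians of all genes in the same order were -0.11, -0.12, -0.02 and -0.01.

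**Figure D2:**
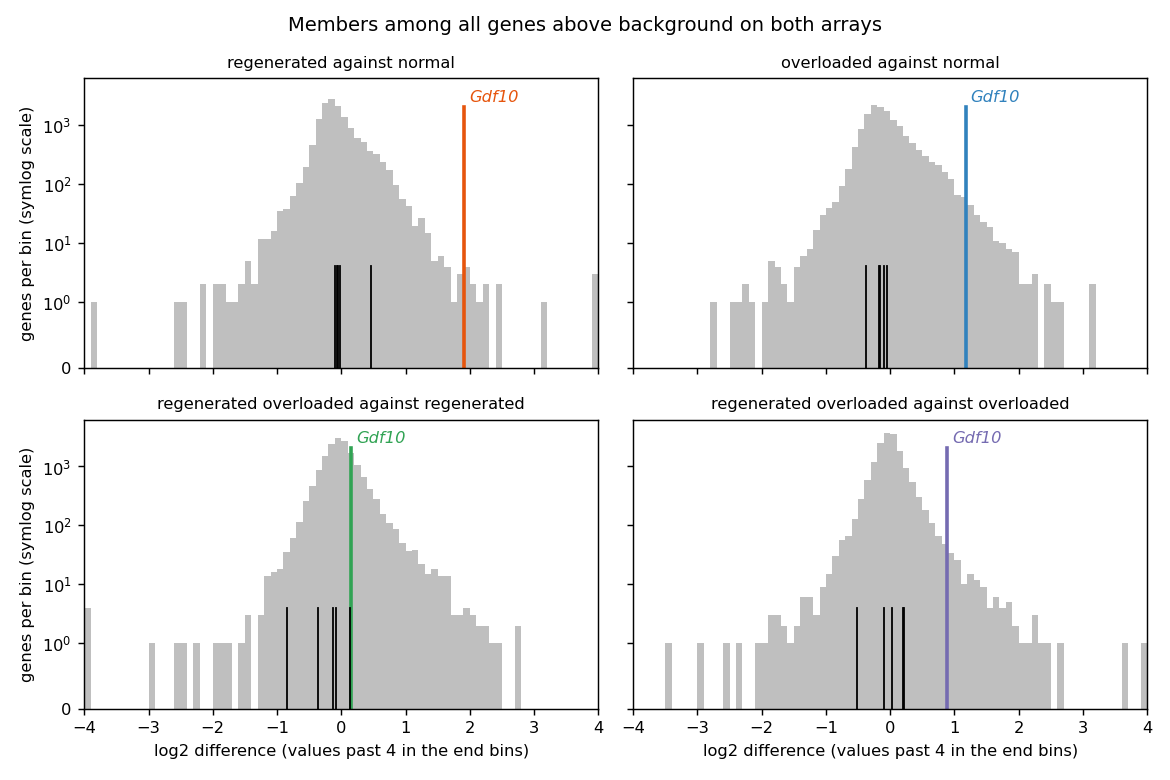
Log2 differences of genes that were above background on both arrays compared (grey, number per bin of 0.1, symlog scale) in the 4 comparisons, with Gdf10 as a tall coloured line and the other 5 members measured on every array as short black lines. Gdf10 lies in the upper tail in 3 comparisons and near the middle for regenerated overloaded against regenerated muscle, at 0.15.

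The overload difference of Gdf10 was smaller in regenerated muscle than in normal muscle. It was 0.15 between regenerated overloaded and regenerated muscle and 1.17 between overloaded and normal muscle, a difference of -1.02 (SE 0.12), or 2.03-fold. Among 14417 genes above background on all 4 arrays, 0.763% passed 2-fold in this quantity, and Gdf10 was the 1 of 6 members that did. This quantity contains the regenerated against normal difference on which Gdf10 was selected, so a value below 0 was favoured by the choice and nothing is read from it. The value lies at the limit and missed it under 3 other normalizations, at -0.96, -0.91 and -0.55. Overloaded groups were 2 weeks older than the others and lay in the other row of the slide, so load, age and slide row cannot be told apart.

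The start region of Gdf10 is shown next to that of Msx1, a homeobox gene that BMP signalling switches on in embryonic tissue and the listed pathway gene whose levels lay closest to those of Gdf10 here. Each runs from 250 bases before to 50 bases after the RefSeq start on GRCr8, 5′ to 3′ on the plus strand. The Gdf10 window is chr16:9243262-9243561 and the Msx1 window chr14:77185552-77185851. Capitals mark GGCGCC, a GC-rich element at which BMP SMADs bind in other genes.
Gdf10: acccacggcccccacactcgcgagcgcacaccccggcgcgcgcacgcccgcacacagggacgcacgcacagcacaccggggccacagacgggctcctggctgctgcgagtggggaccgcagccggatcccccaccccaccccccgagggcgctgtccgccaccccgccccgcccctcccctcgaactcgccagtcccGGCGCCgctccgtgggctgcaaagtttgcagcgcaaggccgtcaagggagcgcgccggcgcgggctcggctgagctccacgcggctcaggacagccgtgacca
Msx1: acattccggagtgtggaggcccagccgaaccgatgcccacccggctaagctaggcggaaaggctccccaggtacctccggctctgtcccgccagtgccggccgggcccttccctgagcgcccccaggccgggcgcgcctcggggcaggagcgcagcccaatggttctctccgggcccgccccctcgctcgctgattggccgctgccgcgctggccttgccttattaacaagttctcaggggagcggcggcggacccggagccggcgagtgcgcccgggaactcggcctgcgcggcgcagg
Both windows are rich in G and C, at 76% for Gdf10 and 73% for Msx1, against a median of 51.7% over 33469 promoters, and they hold 39 and 34 CpG pairs against a median of 7. GGCGCC, which reads the same on both strands, occurred once in the Gdf10 window, 53 bases before the start, and not in that of Msx1. It is present in 11.0% of promoter windows of this length. The shorter SMAD box, GTCT on either strand, also occurred once in the Gdf10 window and not in that of Msx1, against 88.8% of all windows. These matches describe letters only, and the arrays carry no binding data.

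The other BMP ligands did not share the Gdf10 pattern of levels. Bmp4, which drives satellite cell growth in mice, had 455 units in regenerated overloaded, 498 in regenerated, 487 in overloaded and 505 in normal muscle. All 4 values lay within a 1.11-fold span, and no log2 difference exceeded 2 SE. Bmp2, known for inducing bone, had 143 units in regenerated overloaded, 183 in regenerated, 124 in overloaded and 133 in normal muscle. Regenerated muscle was the highest, 1.38-fold normal muscle (0.47, SE 0.16), and regenerated overloaded muscle stood below it by 0.36 (log2 difference -0.36, SE 0.095). Each Bmp2 value rests on 2 spots.

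Bmp7, a ligand known for kidney development and for promoting brown fat, was lowest after both treatments. It had 44.8 units in regenerated overloaded, 80.4 in regenerated, 64.1 in overloaded and 83.2 in normal muscle. Regenerated overloaded muscle was lower than regenerated muscle, at a log2 difference of -0.85 (SE 0.23), a 1.80-fold ratio short of the 2-fold limit, and -0.36 with normexp. By size this ranked 362 of 16195 genes. Both spots in regenerated overloaded muscle, at 44.1 and 45.4 units, lay below every spot of the other arrays, the lowest being 53.7 units in overloaded muscle. Regenerated and normal muscle overlapped in Bmp7.

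Bmp5 and Bmp6, close relatives of Bmp7, were near the background. Bmp5 had 19.1 units in regenerated overloaded, 15.4 in regenerated, 25.7 in overloaded and 8.79 in normal muscle, and only the overloaded array had it above background. Regenerated overloaded muscle was at least 1.35-fold lower than overloaded muscle for Bmp5, counted against its own dim value, but that difference turned to 0.16 when spots in the outer rows of the array were left out, and its spots overlapped. Bmp6 had 16.3 units in regenerated overloaded, 22.1 in regenerated, 34.9 in overloaded and 36.1 in normal muscle. It too was above background on the overloaded array alone, with 1 of its 2 spots so marked on each of the other arrays. Regenerated overloaded muscle was at least 1.96-fold lower than overloaded muscle (log2 difference -0.97). Over the normalizations and filters that difference shrank to as little as -0.21. An at-least ratio sets the brighter value against the lowest probe level well above background on the other array, or the gene's own value if that is higher. The normal array's lowest level, at 32.5 units, was higher than those of regenerated overloaded (17.8), regenerated (16.5) and overloaded muscle (14.7). The overloaded value of Bmp5 lies under that normal level, and the overloaded value of Bmp6 lies under its own dim value in normal muscle, so neither gene has a ratio to normal muscle.

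The receptors were nearly level. Bmpr1a, the type I receptor for Bmp2 and Bmp4, had 540 units in regenerated overloaded, 492 in regenerated, 465 in overloaded and 524 in normal muscle, a 1.16-fold span. Bmpr2, the type II receptor, had 316 units in regenerated overloaded, 333 in regenerated, 311 in overloaded and 348 in normal muscle, a 1.12-fold span. Its overloaded value was 0.16 below normal muscle (log2 difference -0.16), and every other Bmpr2 difference was smaller. Several of these small differences changed sign with the normalization, namely regenerated against normal for Bmp4, Bmp7, Bmpr1a and Bmpr2, and overloaded against normal for Bmp2, Bmp4 and Bmpr2.

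Grem1, gremlin, a secreted protein that traps Bmp2, Bmp4 and Bmp7, was barely seen. Its brighter probe had 14.6 units in regenerated overloaded, 20.8 in regenerated, 6.27 in overloaded and 13.7 in normal muscle, above background in regenerated muscle alone. Regenerated overloaded muscle was at least 1.17-fold lower than regenerated muscle, and there is no ratio to normal muscle because the value in regenerated muscle lies under the normal array's lowest level. The second Grem1 probe was above background on none of the 4 arrays.

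**Figure D3:**
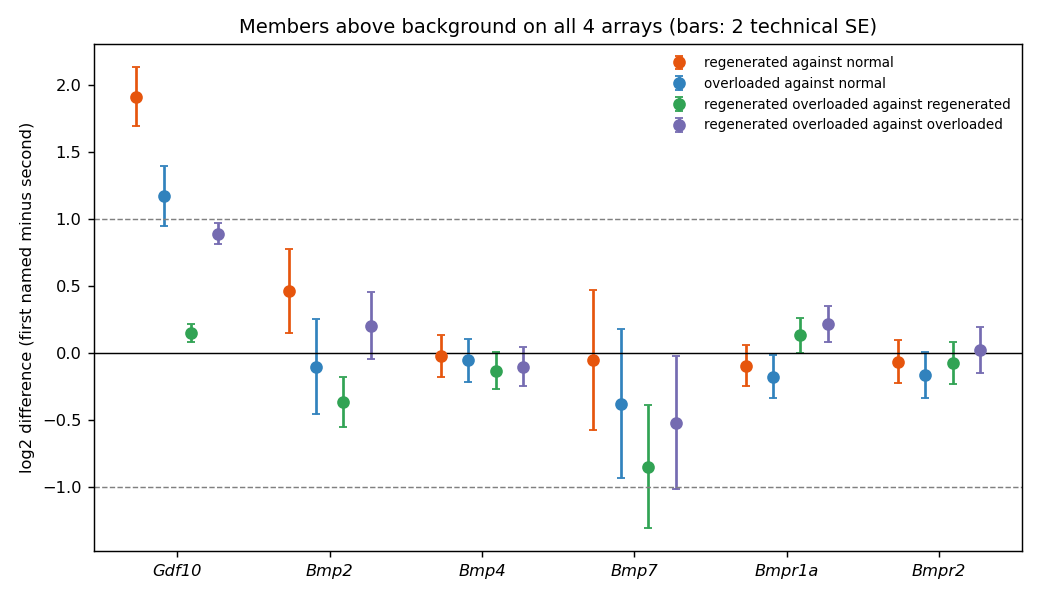
Log2 differences of the 6 members above background on all 4 arrays, in the 4 comparisons, with bars of 2 technical SE and dashed lines at 2-fold. Gdf10 passes 2-fold in regenerated and in overloaded muscle, each against normal muscle, and Bmp7 has the lowest value, -0.85 for regenerated overloaded against regenerated muscle.

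Around these genes, a list of 59 other pathway genes was read, of which 50 were matched to the array. In regenerated against normal muscle 2 of 43 measured were higher by 2-fold or more (Fst and Msx1) and 0 were lower, with a median of 0.14 against -0.11 for all genes. In overloaded against normal muscle 1 of 40 was higher (Msx1) and 0 lower, with a median of -0.03 against -0.12. In regenerated overloaded against regenerated muscle 0 of 44 passed, with a median of -0.04 against -0.02, and against overloaded muscle 0 of 42 passed, with a median of 0.06 against -0.01. These shares stand beside the 1.25%, 2.42%, 1.99% and 1.69% of all genes given for the same calls.

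Among ligands of the list, Bmp3, Bmp10, Bmp15 and Gdf2 were not above background on any array. This includes the closest relative of Gdf10, Bmp3. Gdf6 and Gdf7, ligands known from joint and tendon, were above it on all 4. Gdf6 had 55.0 units in regenerated overloaded, 61.7 in regenerated, 60.4 in overloaded and 65.8 in normal muscle, read from 1 spot, and its differences from normal muscle were within their SE and changed sign with the normalization. Gdf7 had 79.1 units in regenerated overloaded, 81.0 in regenerated, 74.7 in overloaded and 101.2 in normal muscle, the highest of its 4 values.

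The extracellular antagonists and modulators had the highest median of the 5 roles in regenerated against normal muscle, at 0.51 over the 13 above background on both arrays, between 0.28 and 0.64 under the other normalizations and filters. Theirs was also the highest in overloaded against normal muscle (0.41) and in regenerated overloaded against overloaded muscle (0.21). In regenerated overloaded against regenerated muscle it was 0.13, below the 0.33 of the target genes. Follistatin (Fst), which neutralises activins and myostatin and binds some BMPs, had 898 units in regenerated overloaded, 821 in regenerated, 633 in overloaded and 377 in normal muscle. Regenerated muscle had 2.18-fold the Fst level of normal muscle (1.12, SE 0.077), and its order over the 4 arrays was that of Gdf10.

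Bmper, which can both block and help BMPs, had 346 units in regenerated overloaded, 316 in regenerated, 280 in overloaded and 181 in normal muscle. Chrdl1, a chordin-like antagonist, had 241 units in regenerated overloaded, 193 in regenerated, 178 in overloaded and 121 in normal muscle. Both had the order of Gdf10 and Fst and stayed within 2-fold, although the Bmper difference between regenerated overloaded and regenerated muscle, 0.13, turned to -0.38 with the mean over its probes. Other genes of this role ran the other way. Crim1, a membrane protein that binds BMPs, had 3898 units in regenerated overloaded, 5286 in regenerated, 5431 in overloaded and 6761 in normal muscle over 10 spots, the reverse of the Gdf10 order. With Sost, Chrdl2 and Cer1 it made up the 4 of 13 that were lower in regenerated than in normal muscle. The Cer1 difference was only -0.06, read from 1 spot, and lay between -0.50 and 0.07 over the normalizations and filters. Bmp1, a procollagen protease that also cleaves chordin and is no BMP ligand despite its name, had 3169 units in regenerated overloaded, 2493 in regenerated, 2776 in overloaded and 1618 in normal muscle, so that overloaded muscle stood above regenerated muscle. A second, dimmer Bmp1 probe, above background on all 4 arrays, was nearly level at 153, 163, 152 and 155 units in the same order. On it overloaded muscle stood below regenerated muscle. Nog, noggin, was above background in regenerated muscle alone, with 26.0 units.

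Of the transducers and inhibitors inside the cell, none passed 2-fold in any of the 4 comparisons. Smad1, which carries the BMP signal, had 499 units in regenerated overloaded, 504 in regenerated, 452 in overloaded and 452 in normal muscle. Smad5, of the same branch, and Smad4, the common partner, stayed within spans of 1.11-fold and 1.25-fold. A second, dimmer Smad5 probe of 1 spot had 27.6 units in regenerated overloaded, 49.9 in regenerated, 33.1 in overloaded and 41.5 in normal muscle, where it was not above background. With the mean over both probes, the Smad5 difference between regenerated overloaded and regenerated muscle turned from 0.09 to -0.39. Smad7, an inhibitory SMAD, had 361 units in regenerated overloaded, 462 in regenerated, 378 in overloaded and 441 in normal muscle, lower in the overloaded groups. Smad9 was not above background on any array. Bambi, a pseudoreceptor that blocks signalling, had 250 units in regenerated overloaded, 208 in regenerated, 291 in overloaded and 297 in normal muscle, the lowest in regenerated muscle (log2 difference from normal -0.52, SE 0.10). Among receptors, Acvr2b had 598 units in regenerated overloaded, 870 in regenerated, 715 in overloaded and 821 in normal muscle, and Bmpr1b, a second type I receptor, was highest in normal muscle at 201 units, against 131 to 148 on the other arrays. Hjv, hemojuvelin, a BMP co-receptor of skeletal muscle known for iron control, had 9684 units in regenerated overloaded, 12116 in regenerated, 12451 in overloaded and 15362 in normal muscle. Acvrl1 had the order of Gdf10, with 962, 946, 890 and 711 units in the same order of groups. Rgma had it too, with 2732, 2721, 2645 and 1954 units, but its second, dimmer probe had 41.5, 57.9, 59.1 and 54.9. Of the listed receptors above background on both arrays, 4 were higher and 2 lower in regenerated than in normal muscle. In overloaded against normal muscle 3 were higher and 3 lower.

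The target genes did not move as 1 group. Msx1 had 491 units in regenerated overloaded, 390 in regenerated, 394 in overloaded and 168 in normal muscle. It was 2.33-fold higher in regenerated than in normal muscle (1.22, SE 0.046) and 2.35-fold higher in overloaded than in normal muscle (1.23, SE 0.046). These 2 values share the normal array, and with normexp they were 0.89 and 0.90, under 2-fold. Id1, the textbook direct target of BMP SMADs, had 628 units in regenerated overloaded, 816 in regenerated, 615 in overloaded and 728 in normal muscle, lower in each overloaded group than in the group of the same injury history. Id2 had 490 units in regenerated overloaded, 276 in regenerated, 442 in overloaded and 224 in normal muscle, and Id3 had 107, 73.8, 98.2 and 65.6 in the same order. Both were higher in the overloaded groups, by 0.98 for Id2 (1.98-fold) and 0.58 for Id3 in overloaded against normal muscle, the opposite direction to Id1. With the authors' scaling the Id2 value was 1.16, past 2-fold. Fbxo30, the ligase that BMP signalling holds down in mice, lay between 220 units in overloaded and 249 in regenerated muscle.

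**Figure D4:**
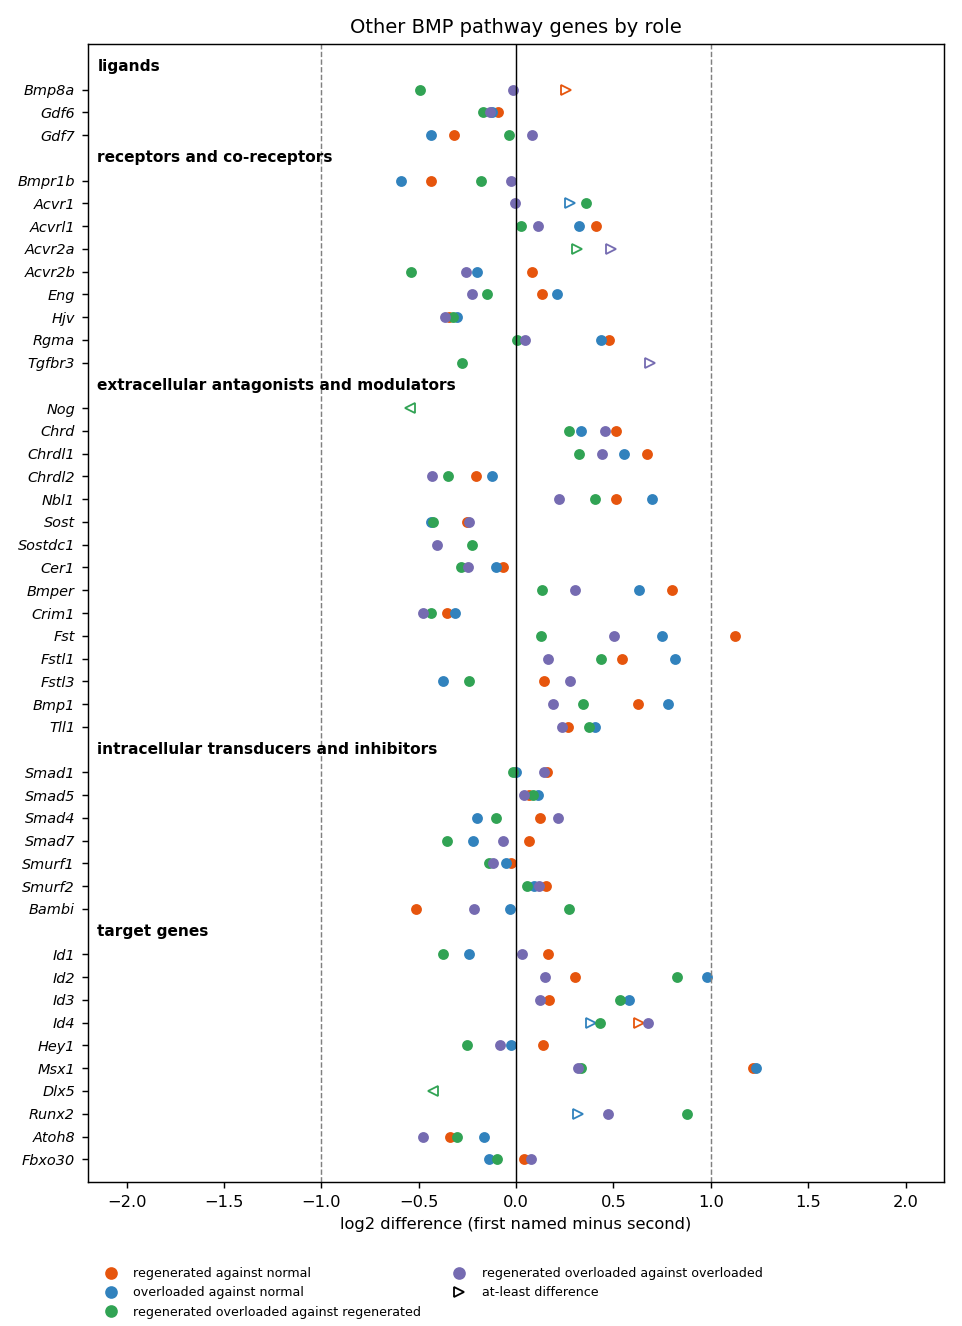
Log2 differences of the listed pathway genes outside the 9, ordered by role, in the 4 comparisons; open arrowheads are at-least differences and dashed lines mark 2-fold. Fst and Msx1 are the genes past 2-fold, and Id1 and Id2 lie on opposite sides of 0 for overloaded against normal muscle.

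To place the pattern of Gdf10 among all genes, each gene's 4 log2 levels were centred on their mean and the Euclidean distance to Gdf10 was taken. It was computed over 9128 named genes above background on all 4 arrays, and 4 points make it a description only. The nearest 10 were Atp1b4 at a distance of 0.30, Mcpt8 at 0.31, Eln at 0.35, the cytokine receptor gene Il17re, the protease inhibitor genes Cst6 and Serpina3n and Mcpt9 between 0.43 and 0.44, the dynein adaptor gene Bicd1 at 0.44, the lipid carrier gene Apoe at 0.52, and Glb1l at 0.54, read from 1 spot. Atp1b4, a muscle protein related to sodium pump beta subunits, had 3862 units in regenerated overloaded, 3288 in regenerated, 1577 in overloaded and 850 in normal muscle. Eln, elastin, had 2535 units in regenerated overloaded, 2145 in regenerated, 1766 in overloaded and 680 in normal muscle, read from 1 spot. Mcpt8 and Mcpt9 are mast cell or basophil proteases of 1 gene cluster whose probes may read each other's transcripts. Of the listed pathway genes, Msx1 was nearest at 0.65 (rank 29), then Fst at 0.66 (rank 33) and Bmper at 0.93 (rank 189), while Bmp2 ranked 1766.

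**Figure D5:**
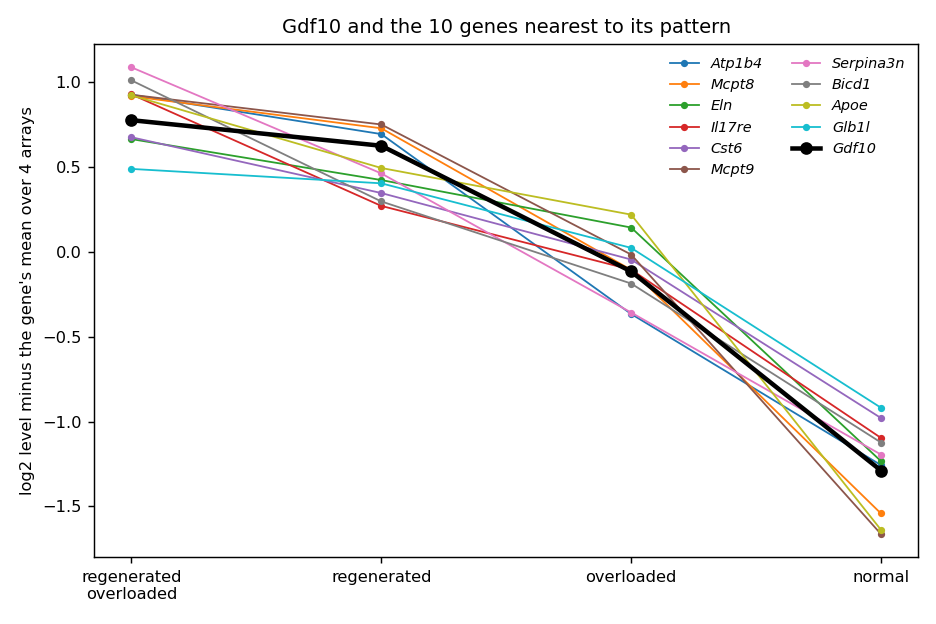
Log2 level minus each gene's own mean over the 4 arrays, for Gdf10 (thick black) and the 10 genes with the smallest distance to it. All 11 are highest in regenerated overloaded and lowest in normal muscle, with overloaded muscle below regenerated muscle.

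Whole muscle holds several cell types, and fewer cells of a type and less RNA per cell cannot be told apart here. Markers of fibro-adipogenic progenitors and fibroblasts, of which 9 of 12 were on the array, summed to 65145 units in regenerated overloaded, 46180 in regenerated, 61621 in overloaded and 33314 in normal muscle. Of these 9, 1 was higher by 2-fold or more in regenerated and 3 in overloaded muscle, each against normal muscle, 1 in regenerated overloaded against regenerated and 0 in regenerated overloaded against overloaded muscle, beside 1.25%, 2.42%, 1.55% and 1.01% of all genes. Pdgfra, a defining surface receptor of these cells, had 1824 units in regenerated overloaded, 1628 in regenerated, 1657 in overloaded and 976 in normal muscle, and Osr1, a transcription factor that marks them, had 81.2 units in regenerated overloaded, 79.9 in regenerated, 53.4 in overloaded and 34.7 in normal muscle, where it was not well above background. Osr1 thus had the order of Gdf10, and it was the only marker of this list to have it. The sum, most of it Mfap5, and each of the other markers were higher in overloaded than in regenerated muscle. Dpp4 was lower after regeneration, with 133 units in regenerated overloaded, 134 in regenerated, 231 in overloaded and 208 in normal muscle. Adipocyte markers, 5 of 6 on the array, summed to 17342 units in regenerated overloaded, 18412 in regenerated, 12133 in overloaded and 8404 in normal muscle. Lep was not above background on any array. Most of the sum was Cfd, with 10723 units in overloaded and 7017 in normal muscle. Adipoq (753 against 911) and Cidec (27.4 against 48.7) were lower in overloaded than in normal muscle. Of the 4 adipocyte markers measured, 2 were higher by 2-fold or more in regenerated against normal muscle, beside 1.25% of all genes. In the other comparisons 0 were. Macrophage markers (8 of 8 on the array) summed to 34888 units in regenerated overloaded, 27709 in regenerated, 32179 in overloaded and 17827 in normal muscle. Tendon markers, 6 of 7 on the array, summed to 83804, 45687, 53147 and 34919 units in that order. Thbs4 had 16709 units in normal and 30507 in regenerated muscle, while 4 of the 6 were lower in regenerated muscle (median -0.26). Of the 6, 4 were higher by 2-fold or more in regenerated overloaded against regenerated muscle, beside 1.55% of all genes. Against overloaded muscle 2 were, beside 1.01%. In overloaded against normal muscle 1 was higher, beside 2.42%, and in regenerated against normal muscle 1 was lower, beside 0.662%. All 11 slow fibre markers were above background on every array, and all 11 were lower in regenerated and in overloaded muscle than in normal muscle, with medians of -0.24 and -0.33. Over the normalizations and filters those medians reached 0.03 and 0.05, so their direction depended on the scaling. Endothelial markers lay between 8144 and 8806 units. Smooth muscle and pericyte markers summed to 9469 units in regenerated overloaded, 8192 in regenerated, 8571 in overloaded and 6973 in normal muscle. All 7 were higher in regenerated than in normal muscle, with 0 past 2-fold. Schwann cell markers summed to 1606, 1972, 2095 and 2039 units in the same order of groups. The part of these cell types in the Gdf10 levels was not tested. Pax7, which defines satellite cells, was above background on none of the 4 arrays. The other listed satellite cell markers were above it on all 4. Myf5 lay between 274 and 333 units, Myod1 between 408 and 578, and Cdh15 between 83.6 and 116.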

How the data were processed

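The files are scanner output of 4 one-colour Agilent rat arrays with 1 array per group (normal, regenerated, overloaded, regenerated overloaded), read with Feature Extraction 11.5.1.1 under protocol GE1_1105_Oct12 and build rn4 per the file headers (10.10.1.1 in the submitters' processing notes). The deposited intensity values are background-subtracted processed signals, and the deposited median signal and local background intensity served the alternatives. The other deposited columns, flags given per the file headers, mark spots well above background and outliers. Of 62976 spots per array, 58717 belong to the 30367 probes. Depth does not apply to arrays, and the number of arrays, 1 per group, limits the precision.

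Log2 processed signal minus each array's 75th percentile was averaged over spots, leaving out outlier spots, and a gene took its brightest probe. RefSeq symbols (GRCr8, names and promoter windows only) matched 18643 probes and 15637 symbols. A difference needed 1 array above background. Technical SE came from the spot SD pooled in 20 signal bins. The 9 genes and all lists were chosen with earlier results of these data known. A further pathway gene, in neither the list of 59 nor its counts, is not reported here. Genes were named if they were members, passed 2-fold in the pathway list, served as examples of a role there, or were among the 10 nearest to Gdf10; the examples were picked with their values in view. Alternatives of scaling were normexp with offset 50 and quantile normalization, quantile, cyclic loess and the authors' scaling. The authors' factor per array was read from their deposited scaled intensities over the processed signals. Further alternatives were mean over probes, no outer 16 rows, no probes printed once, no filter, a filter on both arrays, and a 1.5-fold limit. Python 3.11.15, numpy 2.4.6, pandas 2.3.3, matplotlib 3.10.9, R 4.3.3 and limma 3.58.1 were used, and the code was tested on simulated data.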

Additional observations from a re-analysis of the deposited data

Results flagged for a closer look

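Bmpr1a, the type I BMP receptor, had overload differences of opposite sign in the 2 injury histories. Its log2 difference was 0.13 for regenerated overloaded against regenerated muscle and -0.17 for overloaded against normal muscle, 0.31 apart (technical SE 0.10). With 1 pooled array per group the difference was not tested. Over the normalizations and filters the gap lay between 0.18 and 0.41. The overloaded against normal difference lay between -0.20 and -0.002, so at its smallest it nearly vanished. Of the 2 Bmpr1a spots, 1 lies in the outer rows of the array.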

How the results depend on the processing

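No paired analysis was possible because each group is 1 array and the labels give no replicate numbers. Relative to the all-gene median, Gdf10 was 2.02 higher in regenerated and 1.30 higher in overloaded muscle, each against normal muscle. The authors' scaling moved the all-gene median to 0.02 from -0.11 in the first and to 0.05 from -0.12 in the second, and the share of 2-fold calls that were higher to 78.0% from 65.4% and to 89.6% from 76.6%. All genes past 2-fold numbered 324 for regenerated against normal, 546 for overloaded against normal, 342 for regenerated overloaded against regenerated and 295 for regenerated overloaded against overloaded muscle. In that order they were 116, 212, 102 and 56 with normexp, 191, 342, 186 and 126 without probes printed once, 2209, 5698, 1460 and 1438 with no filter, and 1353, 1907, 1220 and 935 at 1.5-fold; with both arrays above background they were 199, 376, 227 and 144. Members past 2-fold in overloaded against normal muscle were 0 with normexp and 3 with no filter, and 2 with no filter or at 1.5-fold for regenerated overloaded against overloaded, with 1 at 1.5-fold against regenerated muscle. For the overload difference of differences they were 0 with normexp, quantile and cyclic loess, and 2 with no filter. Pathway genes past 2-fold were 2, 1, 0 and 0 in the same order of comparisons, 1, 0, 0 and 0 with normexp, 6, 5, 1 and 1 with no filter, 6, 8, 2 and 2 at 1.5-fold, and 2 in overloaded against normal with the authors' scaling. Of 1853 values for single genes, 1724 moved by less than 2 technical SE and 129 by more, and 0 of those past 2-fold changed sign; the cause was not tested. Signal over background limits Bmp5, Bmp6 and Grem1.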

Other observations

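Runx2, the bone-forming transcription factor that BMPs induce, had 56.3 units in regenerated overloaded, 30.6 in regenerated, 40.6 in overloaded and 11.3 in normal muscle, where it was not well above background. For Runx2, regenerated overloaded muscle stood 0.88 above regenerated muscle on the log2 scale, 0.31 with normexp and 0.25 when its probes were averaged. The other 2 Runx2 probes were above background on no array. Id4 had 97.5 units in regenerated overloaded, 72.4 in regenerated, 60.9 in overloaded and 46.7 in normal muscle, where it too was not well above background, so that its order over the arrays was that of Gdf10. Runx2 and Id4 were picked for mention after their values were seen.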
